A study of Mus musculus with 7 samples.

Results

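Leukocytes of 2 libraries of whole NSCG tumours were compared, one from mice given VEGF and PD-L1 blockade and one from mice given the same blockade with a PI3K inhibitor added. A barcode counted as a leukocyte when it held at least 1000 unique molecular identifiers (UMIs, each standing for 1 captured RNA molecule), at least 500 genes, at most 15% of UMIs from mitochondrial genes and at least 1 UMI of Ptprc, the gene of the pan-leukocyte antigen CD45. The rule took 2645 leukocytes, 788 from the blockade library and 1857 from the library with the inhibitor, out of 13044 barcodes that passed the quality limits in these libraries. In the whole series of 7 libraries, the same rule took 11582 leukocytes of 51795 barcodes. Lymphoid cells were leukocytes with at least 2 UMIs summed over Cd3d, Cd3e and Cd3g, which encode chains of the T cell receptor complex. Myeloid cells were leukocytes with no UMI of these genes and at least 5 UMIs summed over Lyz2, C1qa and C1qb, which encode lysozyme and complement C1q chains.

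NSCG is a mouse glioma line that expresses the EGFRvIII receptor and mCherry and lacks Arf and Ink4a, and it was grown as tumours in C57BL/6 mice aged 7 to 10 weeks. BP replicate 2 came from mice given B20, an antibody to VEGF, at 5 mg/kg with an antibody to PD-L1 at 10 mg/kg. They were injected every 3 days from day 6 or 7, in 3 rounds of treatment. BPI came from mice given both antibodies in the same way plus IPI-145, an inhibitor of the delta and gamma forms of PI3K, at 10 mg/kg by mouth every day. Tumours were taken at about day 14, and each library pooled at least 2 mice. An oral diluent is described for isotype (IgG) controls of the BPI experiment and not for BP, so gavage and drug cannot be told apart. The series also holds an earlier BP library (replicate 1), an untreated library (UT), 2 IgG libraries (IgG2b at 10 mg/kg) and a CD40 agonist library (100 ug). These are given below only as values for reference. BPI was set against BP replicate 2 because their libraries are numbered consecutively, and several differences turn when it is set against replicate 1.

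Class I PI3Ks turn signals from surface receptors into the membrane lipid PIP3, which recruits AKT and other kinases. The delta form (gene Pik3cd) acts mostly downstream of antigen, costimulatory and cytokine receptors in lymphocytes, and the gamma form (Pik3cg) downstream of chemokine receptors, mainly in myeloid cells. In T cells, PIP3 signalling through AKT keeps FOXO transcription factors out of the nucleus. In tumour macrophages, PI3K gamma is known for favouring a suppressive over an inflammatory programme.

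There was 1 library per arm, so no difference below has a replicate check and none was tested. All intervals are exact 95% intervals of the counting error only, except that of a difference of shares, which is Newcombe's. Those on UMI counts treat UMIs as independent, although 1 cell can hold many. The libraries held 75444603 (BP replicate 2) and 68997476 UMIs (BPI), and shared 11 quality barcodes. Median depth was alike in lymphoid cells (3242 UMIs in BP replicate 2 and 3002 in BPI) and myeloid cells (4838 and 4680), while BP replicate 1 was deeper (6900 and 10553). The BP replicates differed more from each other than BPI did from BP replicate 2: the SD of log2 ratios over the genes compared was 0.64 for BP replicate 1 over replicate 2 and 0.31 for BPI over replicate 2 in lymphoid cells, and 0.74 and 0.46 in myeloid cells. In the CD8 gate (described below), Xist, which is transcribed in female cells, stood at 416 counts per 1000000 UMIs of the gate (CPM) in BP replicate 2 and at 489 CPM in BPI, against 0 CPM in UT. At the edges of the rule, 185 leukocytes of BP replicate 2 (23.5%) and 407 of BPI (21.9%) held exactly 1 Ptprc UMI. Barcodes with no Ptprc UMI that met the Cd3 limit numbered 20 and 78, and those that met the myeloid limit 81 and 130. At the Cd3 limit, 24 and 61 lymphoid cells held exactly 2 Cd3 UMIs, and 28 and 75 leukocytes held 1.

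Leukocytes made up a larger share of the tumour library with the inhibitor. They were 13.1% of quality barcodes in BP replicate 2 (95% interval 12.3 to 14.0) and 26.4% in BPI (25.4 to 27.4), a difference of 13.3 percentage points (11.9 to 14.6). Among the other libraries the share ran from 4.83% in IgG replicate 1 to 48.9% in BP replicate 1. The BPI share therefore lay between the BP replicates, with a difference of -22.5 points from replicate 1, and its direction depends on which of them it is set against.

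**Figure D1:**
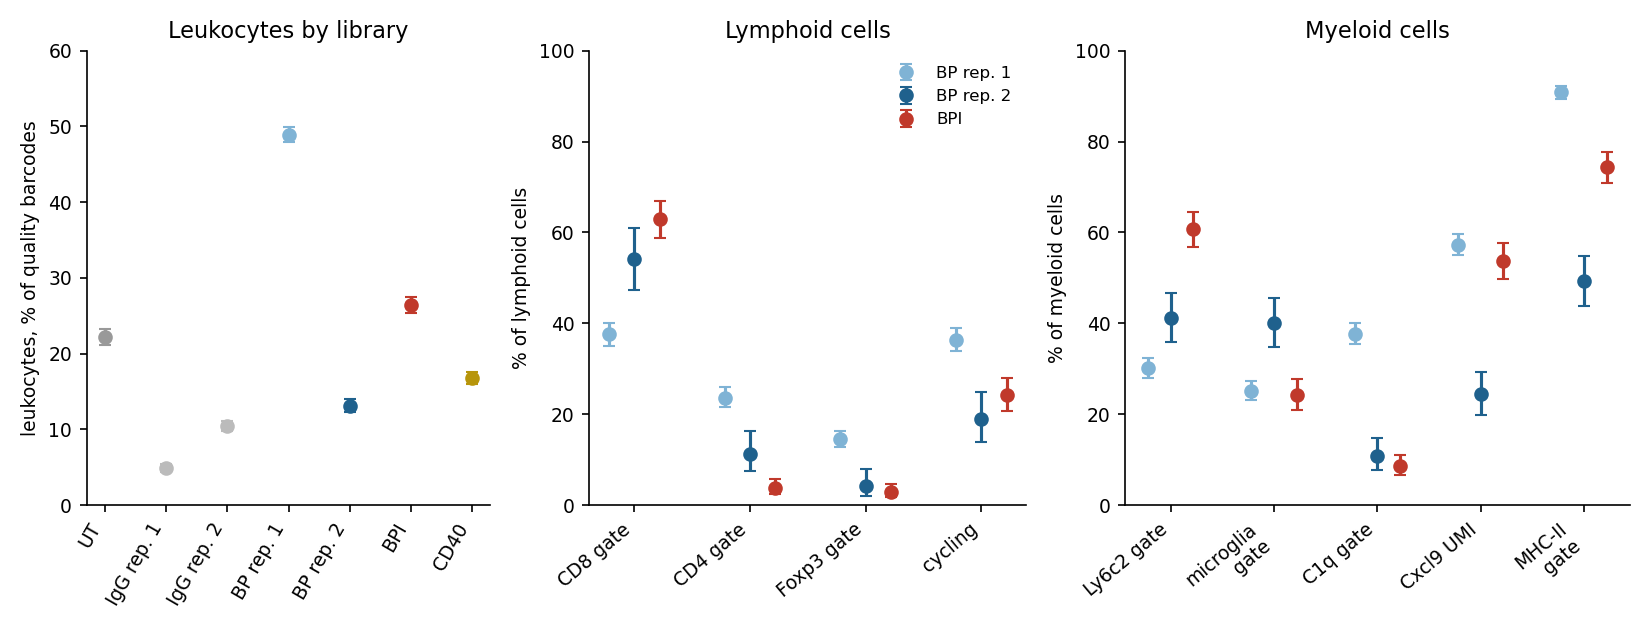
Left, leukocytes as % of quality barcodes in each of the 7 libraries. Centre and right, shares of lymphoid and of myeloid cells in each gate for BP replicate 1, BP replicate 2 and BPI, with exact 95% counting intervals; in the Ly6c2 gate BPI is above both BP libraries, and in the leukocyte share it lies between them.

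Among leukocytes, the lymphoid share was 26.9% in BP replicate 2 (212 cells) and 29.8% in BPI (553 cells), a difference of 2.88 points whose interval, -0.92 to 6.53, includes 0. The myeloid share was 42.1% (332 cells) and 35.4% (657 cells), a difference of -6.75 points (-10.8 to -2.70). Against BP replicate 1, the myeloid share of BPI was 1.44 points higher. The leukocytes in neither class numbered 244 and 647. The largest named group among them was the NK gate (a UMI of Ncr1, Klrb1c or Klre1, genes of natural killer receptors, with no Cd3 UMI), with 89 cells, 11.3% of leukocytes, in BP replicate 2 and 299 cells, 16.1%, in BPI. That difference was 4.81 points (1.92 to 7.48), and 1.59 points when cells needed at least 2000 UMIs. B cells (3 and 10), neutrophils (8 and 6), mast cells (1 and 0) and dendritic cells (17 and 32) were few by their UMI gates. A further 27 and 74 cells held Cd3 UMIs below the rule, and 99 and 226 fitted no gate; of the latter, 43.4% and 35.4% carried tumour RNA at a level that marks a mixed barcode.

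T cells placed by their co-receptors were mostly CD8 cells in both libraries, more so in BPI. The CD8 gate (a UMI of Cd8a or Cd8b1, none of Cd4 or Foxp3) took 115 of 212 lymphoid cells in BP replicate 2 (54.2%) and 348 of 553 in BPI (62.9%), a difference of 8.68 points (0.94 to 16.5). The CD4 gate, for cells with Cd4 and neither Cd8 nor Foxp3, took 24 cells (11.3%) and 21 cells (3.80%), a difference of -7.52 points (-12.7 to -3.44). The gate for Foxp3, the master regulator of regulatory T cells, took 9 cells (4.25%) and 16 cells (2.89%).

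Because a co-receptor UMI is easily missed in a shallow cell, the gates were also drawn anew after thinning each cell to 1000 UMIs. The CD8 gate then held 46.2% of lymphoid cells in BP replicate 2 and 44.0% in BPI, so the direction of its share of all lymphoid cells turned. Among cells placed by Cd8, Cd4 or Foxp3, CD8 cells were 115 of 148 in BP replicate 2 (77.7%, interval 70.1 to 84.1) and 348 of 385 in BPI (90.4%, 87.0 to 93.1), and after thinning 43 of 52 (82.7%) and 109 of 116. In BP replicate 1 that share was 49.6% before thinning. Thinned shares of cells with a UMI of a gene, below, keep the cells of a gate and thin only the UMIs counted in them. Cells in cycle by Mki67 and Top2a, markers of dividing cells, were 18.9% and 24.2% of lymphoid cells, and cells with a UMI of Pdcd1, the gene of PD-1, 19.8% and 21.9%; both intervals of the difference include 0.

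Ly6c2-positive cells made up more, and microglia less, of the myeloid cells in BPI. The Ly6c2 gate (at least 2 UMIs of Ly6c2, a marker of inflammatory monocytes, with little C1q) took 137 of 332 myeloid cells in BP replicate 2 (41.3%) and 399 of 657 in BPI (60.7%), a difference of 19.5 points (12.9 to 25.8). The microglia gate (P2ry12, Tmem119, Siglech and Gpr34, genes of resting microglia) took 133 cells (40.1%) and 159 cells (24.2%), a difference of -15.9 points (-22.1 to -9.70). As a share of all quality barcodes, the microglia gate was 2.21% and 2.26%, while the Ly6c2 gate was 2.28% and 5.67%. The C1q gate, for macrophages rich in C1q without microglial markers, took 36 cells (10.8%) and 56 cells (8.52%); its difference was -2.32 points (-6.57 to 1.44), and 3.29 points after thinning. In BP replicate 1 the shares of these gates were 30.1% for Ly6c2, 25.2% for microglia and 37.7% for C1q, so BPI was above both BP libraries in Ly6c2 cells, and its microglia share differed from that of replicate 1 by -0.999 points. UT stood at 45.8% in the Ly6c2 gate. With gates drawn on thinned cells, UT was at 48.2% and BPI at 45.9%.

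Myeloid cells with a UMI of Cxcl9, a T cell-attracting chemokine induced by interferon gamma, were 24.4% in BP replicate 2 and 53.7% in BPI (19.8% and 41.6% with gates drawn on thinned cells). Myeloid cells with at least 10 UMIs of the MHC class II genes Cd74, H2-Aa and H2-Ab1 were 49.4% and 74.4% (22.9% and 36.6% on thinned cells). The deeper BP replicate 1 stood at 57.3% and 90.9%, and on thinned cells at 30.3% and 65.2%, so at equal depth it was below BPI for Cxcl9 and above it for MHC class II. UT was above BPI in both shares, at 71.5% and 79.2%, and at 45.3% and 54.7% on thinned cells. Arg1, an arginine-consuming enzyme of suppressive macrophages, was detected in 2.71% and 1.98% of myeloid cells, against 74.9% in BP replicate 1. On thinned cells it was detected in 0 of 131 cells of BP replicate 2, 0.78% of BPI and 43.7% of BP replicate 1.

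The genes of PI3K itself were at moderate to low levels in lymphoid cells, and none of those that entered reached the limit used here. For this and the following comparisons, UMIs were summed over the cells of a class and divided by the class total (CPM), a gene entered with a mean of at least 50 CPM and 30 UMIs over both libraries, and it counted as higher or lower at a ratio of 1.5-fold. Entry by the mean also takes a gene that is under 50 CPM in 1 library when the other is high enough, in either direction. Of 3176 genes that entered in lymphoid cells, 76 were higher in BPI (2.39%) and 76 lower (2.39%). None of the 5 class I PI3K genes that entered, 4 subunits and 1 adaptor of a list of 10, was among them, which at these shares says nothing particular about so few genes. Pik3cd, the delta catalytic subunit, was at 102 CPM in BP replicate 2 and 73.6 CPM in BPI (log2 ratio -0.48, interval -0.84 to -0.11). Pik3cg was at 30.6 and 21.9 CPM (29 and 55 UMIs) and did not enter, and the interval of its log2 ratio, -1.16 to 0.22, includes 0. The regulatory subunit genes Pik3r1 (136 and 126 CPM) and Pik3r5 (104 and 111 CPM), the adaptor Pik3ap1 (115 and 122 CPM) and the alpha catalytic subunit Pik3ca (55.9 and 48.1 CPM) had log2 ratios between -0.22 and 0.09.

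Of 14 other PI3K pathway genes that entered in lymphoid cells, none was higher and 2 were lower in BPI. Of all genes there, 2.39% were lower. The median log2 ratio of the 14 genes was -0.16, against -0.03 over all genes entered. The lower of the 2 by ratio was Inpp4b, a phosphatase that acts on the membrane lipid PI(3,4)P2, downstream of PI3K. Inpp4b stood at 589 CPM in lymphoid cells of BP replicate 2, 259 CPM in BPI and 1285 CPM in BP replicate 1, a log2 ratio of BPI over BP replicate 2 of -1.18 (-1.35 to -1.02). In the CD8 gate it was at 416, 205 and 985 CPM, lowest in BPI among the 5 libraries with at least 30 such cells. Cells of the CD8 gate with an Inpp4b UMI were 72.2% in BP replicate 2 and 45.7% in BPI, and 35.7% and 18.4% after thinning, so the lower level was spread over cells. The Ly6c2 gate gave 5.11% and 4.01%.

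Of the genes that FOXO and KLF2 drive in resting T cells, 12 entered in lymphoid cells, and 0 were higher and 0 lower. Of all genes there, 2.39% were higher and 2.39% lower, so 0 of 12 says nothing particular about these genes. Their median log2 ratio was -0.25, against -0.03 over all genes. Il7r, the receptor for the survival cytokine IL-7, was at 131 CPM in BP replicate 2 and 91.9 CPM in BPI. Btg1, an antiproliferative gene, was at 788 and 565 CPM. Klf2 itself, at 166 and 212 CPM, had an estimated 54.0% of its UMIs from free RNA, the RNA in solution that enters every droplet. Targets of MYC and mTORC1 (1 higher and 0 lower of 20, median 0.24), glycolysis (1 and 0 of 11, median 0.37) and S phase genes (3 and 0 of 13, median 0.40) were mostly above 0 without reaching the limit. The free RNA estimate was high for their leading members: 71.8% for Nop56, 89.6% for Mif and 67.9% for Tpi1; its part in these medians was not tested.

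Several effector cytokine genes were higher in the CD8 gate of BPI. In all lymphoid cells, the MHC class II genes H2-Ab1 (6.33 CPM in BP replicate 2 and 109 CPM in BPI, log2 ratio 4.10) and Cd74 (46.4 and 257 CPM, 2.47) had larger ratios, with 68.3% and 60.3% of their UMIs in BPI estimated as free RNA, and BP replicate 1 held 307 CPM of H2-Ab1 and 631 CPM of Cd74. In the CD8 gate, 76 of 3144 genes were higher in BPI (2.42%) and 143 lower (4.55%). Of the 76 higher genes, 50 were also above BP replicate 1, and of the 143 lower genes, 122 were also below it. The same shares over all genes were not counted. Over all lymphoid cells, 253 genes were higher in BPI than in BP replicate 1 and 1170 lower, so these counts are a description. Of 7 T cell cytokine and chemokine genes that entered, 4 were higher and none lower, with a median log2 ratio of 0.73 against -0.03 over all genes. Of 18 genes of T cell receptor activation, a list that shares Ifng, Ccl3, Ccl4 and Xcl1 with it, 6 were higher and none lower (median 0.26). Dissociation stress genes, none of 13 called in the CD8 gate, had a median of 0.18 there and summed to 3939 CPM in BP replicate 2, 4762 CPM in BPI and 2904 CPM in BP replicate 1; their part in the activation values was not tested.

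Ifng, which encodes interferon gamma, was at 448 CPM in the CD8 gate of BP replicate 2 and at 1646 CPM in BPI, a log2 ratio of 1.88 (1.69 to 2.06). It was at 391 CPM in BP replicate 1 and 331 CPM in UT, so BPI was the highest of these libraries. Free RNA was estimated at 50.6% of the CD8 gate's UMIs in BP replicate 2 and 39.3% in BPI, and at 1.42% of the Ifng UMIs of BPI. This upper estimate also counts tumour RNA of mixed barcodes, and the median cell of the gate held no tumour marker UMI in either library. Ccl3 and Ccl4, inflammatory chemokines, were at 106 and 491 CPM (log2 ratio 2.21) and at 590 and 1426 CPM (1.27). Few cells carried these values: Ccl3 was detected in 15 of 115 and 40 of 348 cells and Ccl4 in 39 and 117 (6.09% and 6.61% for Ccl3 and 15.7% and 19.8% for Ccl4 after thinning). No background share is given, as the myeloid gates hold both genes; free RNA was estimated at 6.69% of the Ccl3 and 6.48% of the Ccl4 UMIs of BPI. In BP replicate 2, 1 cell held 33 of the 63 Ccl3 UMIs. Cells with at least 10 UMIs were 1 and 13 for Ccl3 and 6 and 31 for Ccl4, with intervals of the difference that include 0. Xcl1, a chemokine for cross-presenting dendritic cells, was at 199 and 329 CPM (0.73), but its log2 ratio was 0.08 when each cell had equal weight. Tnfrsf9, the costimulator 4-1BB, was at 125 and 213 CPM, and at 300 CPM in BP replicate 1. Gzmb, the protease granzyme B, was at 1156 and 1573 CPM, a ratio under the 1.5-fold limit, and at 1674 CPM in BP replicate 1. UT was above BPI for Gzmb (2948 CPM) and Tnfrsf9 (416 CPM). It was below BPI for Ccl3 (293 CPM), Ccl4 (763 CPM) and Xcl1 (227 CPM). Ern1, the endoplasmic reticulum stress sensor IRE1, was at 157 and 335 CPM, Ly6a, an interferon-induced surface protein, at 534 and 802 CPM, and Il12rb2, a chain of the IL-12 receptor, at 219 and 311 CPM, the last of these under the limit.

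The Ifng difference lay in a small number of cells. In the CD8 gate, 54 of 115 cells of BP replicate 2 (47.0%) and 171 of 348 of BPI (49.1%) held at least 1 Ifng UMI, and 23.5% and 26.7% did so after thinning. The background, taken from the microglia gate, was 1 of 133 cells (0.75%) in BP replicate 2 and 0 of 159 in BPI, which allows a share of up to 1.89% by 3 counts of the total (exact upper limit 2.29%); median depth was 3827 and 3426 UMIs in the CD8 gate and 3586 and 3670 in the microglia gate. Cells with under 10 Ifng UMIs held a mean of 1.28 UMIs in BP replicate 2 and 1.17 in BPI, a description only, since these cells were selected on Ifng.

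Cells with at least 10 Ifng UMIs were 5 of 115 (4.35%, interval 1.43 to 9.85) and 28 of 348 (8.05%, 5.41 to 11.4). The difference of 3.70 points has an interval of -2.25 to 7.85. These cells held 47.0% of the gate's Ifng UMIs in BP replicate 2 and 86.6% in BPI. The highest single cell held 39 of 266 UMIs in BP replicate 2 and 860 of 2808 in BPI. With the top cell of each library left out, Ifng was at 386 and 1148 CPM (log2 ratio 1.57), and with each cell given equal weight the log2 ratio was 1.43. In BP replicate 1, which is deeper, 4.56% of cells held at least 10 UMIs and the highest cell held 528.

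**Figure D2:**
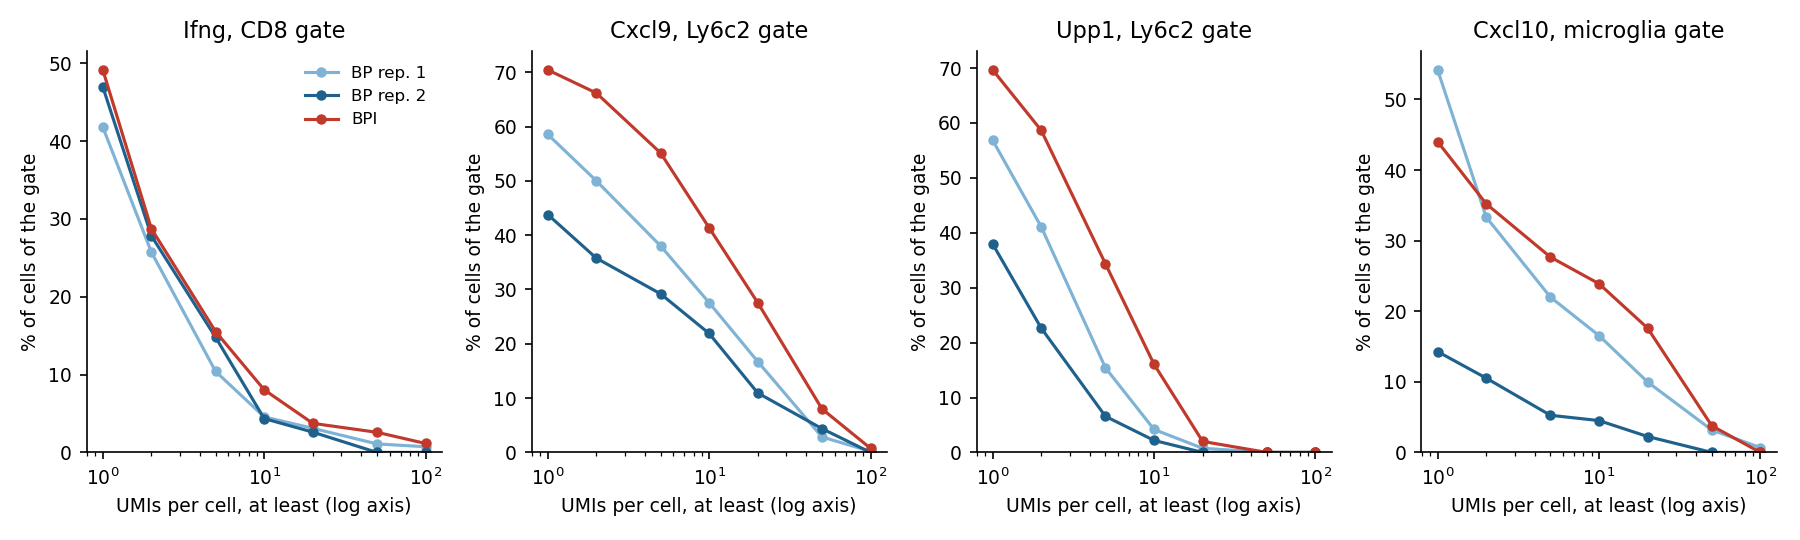
Each panel plots, for 1 gene in 1 gate, the % of cells that hold at least the number of UMIs on the x axis (log axis), for BP replicate 1, BP replicate 2 and BPI. The Ifng curves of BP replicate 2 and BPI start together at 1 UMI (47.0% and 49.1%) and part only at high counts. The Cxcl9 and Upp1 curves of BPI lie above those of BP replicate 2 from 1 UMI on.

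In BPI, the 28 CD8 cells with at least 10 Ifng UMIs also held several other activation genes more often than the rest of the gate. Ccl3 was detected in 17 of them (60.7%) and in 23 of the other 320 cells (7.19%), and Ccl4 in 25 and 92. Of 837 Ccl3 UMIs in the gate, 783 lay in the 28 cells. Tnfrsf9 was detected in 27 of the 28 and in 111 of the 320, and Pdcd1 in 19 and 65. Fewer of the 28 held Xcl1 (12, against 30 of the 320), Tnf (14 and 22) or Il2, the gene of the cytokine IL-2 (3 and 4). Gzmb was detected in 23 of the 28 (82.1%) and 270 of the 320 (84.4%), with 586 and 2097 UMIs, so the 28 cells held more Gzmb per cell. Lyz2, a myeloid gene that would mark a mixed barcode, was detected in 1 of the 28 cells. These cells were chosen on Ifng, and cells of high depth hold more of every gene, so the counts are a description.

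Summed over leukocytes, Ifng came mostly from the CD8 gate, which held 69.8% of 381 Ifng UMIs in BP replicate 2 and 91.9% of 3056 in BPI. Per 100 quality barcodes this was 4.43 and 39.9 Ifng UMIs, a value that also holds the share of CD8 cells among barcodes. BP replicate 1 stood at 23.2 per 100, with 55.9% of its Ifng UMIs in the CD8 gate. The NK gate showed no such difference, with Ifng at 125 CPM in both libraries (log2 ratio 0.00, interval -0.52 to 0.55) and an estimated 36.6% of its UMIs there from free RNA. In the CD4 and Foxp3 gates, with 33 and 37 cells, Ifng was at 304 CPM in BP replicate 2 (34 UMIs) and 54.5 CPM in BPI (10 UMIs), the opposite direction. Of those barcodes, 9.09% and 27.0% carried tumour RNA at a mixed level, and its part in the Ifng values was not tested.

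**Figure D3:**
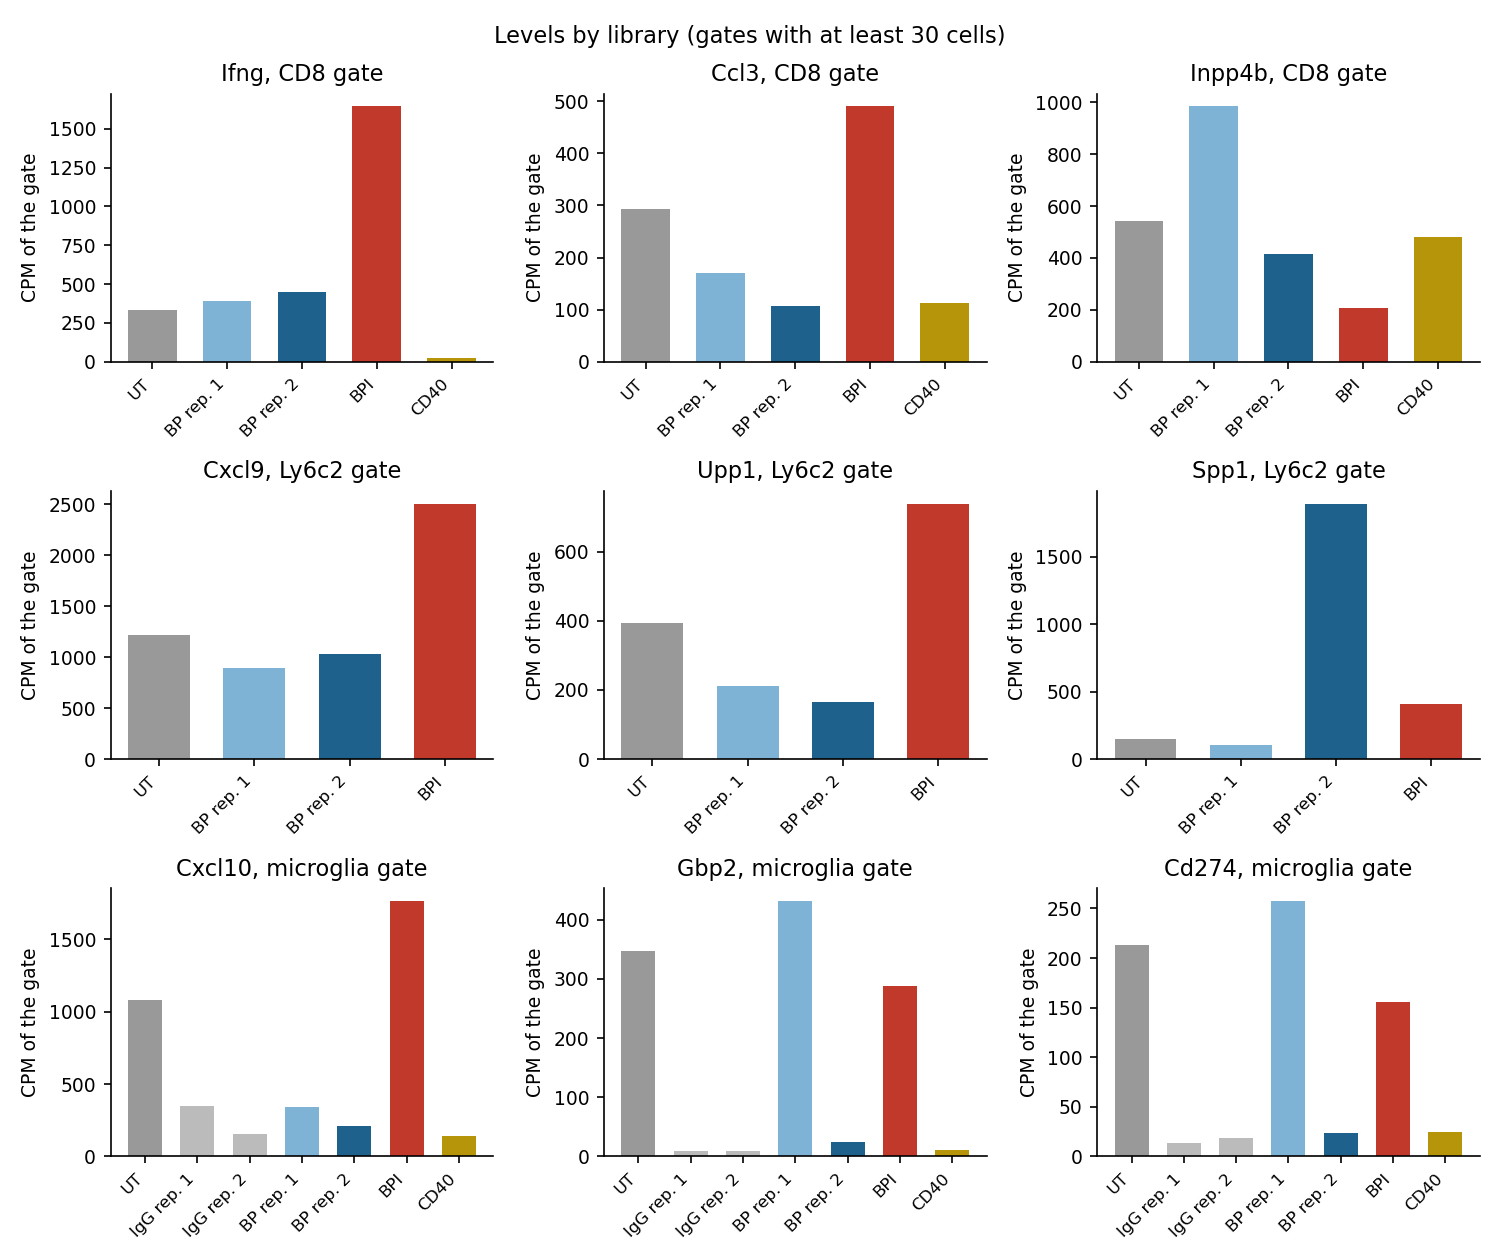
Bars give the level of 9 genes in CPM of the gate named in each title, for every library with at least 30 cells in that gate. Ifng, Cxcl9, Upp1 and Cxcl10 are highest in BPI; Inpp4b is lowest in BPI; Spp1 in the Ly6c2 gate is high in BP replicate 2 (1893 CPM) and at 104 CPM in BP replicate 1; Gbp2 and Cd274 in the microglia gate are higher in BP replicate 1 than in BPI.

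Other genes were lower in the CD8 gate of BPI. Rnf166, a ubiquitin ligase, was at 89.3 CPM in BP replicate 2 and 34.6 CPM in BPI, Ppp3cc, a catalytic subunit of calcineurin, at 167 and 78.0 CPM, and Tln1, which links integrins to actin, at 324 and 203 CPM. Rgs1, which dampens chemokine receptor signalling, was at 450 and 286 CPM. Of 16 genes of the type I interferon response that entered, none was higher and 4 (Ddx58, Ifit2, Rsad2 and Usp18) were lower, where 4.55% of all genes were lower; 12 were not called, and the median was -0.24. The interferon-inducible Ifi208 (77.5 and 34.6 CPM) and Ifi206 (103 and 55.1 CPM) lay outside that list and were lower too. BP replicate 1 was above BPI for Ifi208 (49.3 CPM) and Ifit2 (62.2 CPM) and below it for Ifi206 (51.5 CPM) and Usp18 (120 CPM, against 155 CPM in BPI); over all lymphoid cells, the log2 ratio of BPI to BP replicate 1 was 0.81 for Ifi206 and 0.018 for Ifit2, so their direction turned. For the interferon gamma response, 4 of 17 genes were higher and none lower in the CD8 gate, with a median of 0.33. Of all genes there, 2.42% were higher. Those 4, Igtp, Cxcl9, Gbp2 and Iigp1, had between 28.5% (Igtp) and 96.5% (Iigp1) of their UMIs in BPI estimated as free RNA. Exhaustion genes showed 1 of 12 higher and none lower (median 0.18, against -0.03 over all genes). Pdcd1 was at 74.2 and 91.4 CPM and Havcr2, the gene of TIM-3, at 86.0 and 83.2 CPM. Genes called lower in the CD8 gate span a median of 63.6 kb of genome and those called higher 13.5 kb, against 25.2 kb for the rest. The same order held in all 7 classes in which it was measured. Genes of at least 100 kb had a median log2 ratio of -0.20 in the CD8 gate, against -0.03 over all genes. For BP replicate 1 over replicate 2, these medians were 0.54 and 0.12. The part of gene span in the calls, that of Inpp4b among them, was not tested.

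In the NK gate, 139 of 3541 genes were higher in BPI (3.93%) and 237 lower (6.69%), and 76 of the 139 were also above, and 188 of the 237 below, BP replicate 1. The shares of all genes above and below BP replicate 1 were not counted here either, so these counts are a description. Il12rb2 was at 209 CPM in BP replicate 2 and 336 CPM in BPI (log2 ratio 0.69), and Gzmb at 853 and 1219 CPM (0.52), both in the direction seen in the CD8 gate. Ifngr1, the ligand-binding chain of the interferon gamma receptor, was at 539 and 768 CPM; Gzmb and Ifngr1 were under the 1.5-fold limit. Cd247, the zeta signalling chain shared by T and NK receptors, was at 209 and 96.9 CPM, Ltb, the cytokine lymphotoxin beta, at 411 and 231 CPM, and Tgfb1, the gene of TGF-beta 1, at 318 and 178 CPM. Of 18 interferon gamma response genes, 8 were higher and none lower (median 0.51). Free RNA was estimated at 64.3% of the gate's UMIs in BP replicate 2 and 76.9% in BPI, and its part in these counts was not tested. The NK gate was the shallowest, with medians of 2166 and 1958 UMIs, and 11.2% and 15.1% of its barcodes carried tumour RNA at a mixed level.

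Over the whole class, more genes were called in myeloid than in lymphoid cells. In all myeloid cells, 215 of 3193 genes were higher in BPI (6.73%) and 206 lower (6.45%). Since the shares of the gates also differed, genes are described within gates; 4 myeloid cells of BPI and 0 of BP replicate 2 met the neutrophil gate and enter none of the gates below. In the Ly6c2 gate, 119 of 3053 genes were higher (3.90%) and 187 lower (6.13%), and 79 of the 119 and 141 of the 187 also lay outside BP replicate 1 on the same side. The same shares over all genes were not counted. Over all myeloid cells, 399 genes were higher in BPI than in BP replicate 1 and 1068 lower, so these counts are a description. Free RNA was estimated at 35.5% of the gate's UMIs in BP replicate 2 and 41.1% in BPI, an estimate that also counts tumour RNA of mixed barcodes.

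The Ly6c2 cells of BPI held more RNA of many interferon gamma response genes and of some inflammatory genes than those of BP replicate 2. Of 23 interferon gamma response genes that entered, 14 were higher and none lower, with a median log2 ratio of 0.82 against -0.08 over all genes. The summed level of the list was 7473 CPM in BP replicate 2, 12554 CPM in BPI and 10905 CPM in BP replicate 1. Cxcl9 and Cxcl10 count in that sum. Over all myeloid cells, the median log2 ratio of the list was -0.057 for BPI over BP replicate 1. The sums therefore do not place the whole list above both BP libraries. Of 23 type I interferon genes, 1 was higher and none lower (median 0.23). Of 21 inflammatory genes, 8 were higher and none lower (median 0.48), where 3.90% of all genes were higher.

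Cxcl9 was at 1029 CPM in the Ly6c2 gate of BP replicate 2 and at 2504 CPM in BPI (log2 ratio 1.28, 1.18 to 1.38), and at 889 CPM in BP replicate 1. Cells with a Cxcl9 UMI were 43.8% and 70.4%, and 28.5% and 56.9% after thinning, against 0.87% and 4.31% in the CD8 gate. The higher level was thus spread over more cells than that of Ifng: 30 of 137 and 165 of 399 cells held at least 10 Cxcl9 UMIs. Cxcl10, a ligand of the same receptor CXCR3, was at 1760 and 2391 CPM, under the limit. Gbp2 and Gbp5, guanylate-binding proteins that act against intracellular microbes, were at 328 and 702 CPM and at 239 and 434 CPM. Cd274, the gene of PD-L1, was at 183 and 366 CPM (interval of the log2 ratio 0.76 to 1.25), while both libraries came from mice given an antibody to its product. BP replicate 1 was above BPI for Gbp2 (998 CPM) and Cd274 (519 CPM) and below it for Gbp5 (336 CPM). UT was above BPI for Gbp2 (900 CPM) and Cxcl10 (2537 CPM) and below it for Cxcl9 (1213 CPM).

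Upp1, uridine phosphorylase 1, which releases ribose from uridine, was at 164 CPM in BP replicate 2 and 738 CPM in BPI (log2 ratio 2.17, 1.93 to 2.42), above the 212 CPM of BP replicate 1 and the 392.2 CPM of UT. Cells with a Upp1 UMI were 38.0% and 69.7%, and 13.1% and 43.1% after thinning, against 4.35% and 6.32% in the CD8 gate. Saa3, an acute-phase protein, was at 18.3 and 195 CPM and was detected in 9 of 137 and 78 of 399 cells. Nos2, the inducible nitric oxide synthase, was at 18.3 and 105 CPM, and Inhba, a subunit of activin A, at 26.9 and 107 CPM. Chil3, a secreted lectin of monocytes, was at 405 and 1117 CPM, but at 1925 CPM in BP replicate 1. Ptgs2, the prostaglandin synthase COX-2, was at 174 and 406 CPM and at 64.6 CPM in BP replicate 1. Tnf, the cytokine TNF, was at 232 and 379 CPM. The 8 inflammatory genes called higher were thus of several kinds, with Nos2, Saa3, Ptgs2 and Tnf beside Cxcl9, which the interferon gamma list also holds. Saa3 and Nos2, like Inhba, were below the entry level in BP replicate 2 and entered through their level in BPI. Dissociation stress genes summed in this gate to 8571 CPM in BP replicate 2, 9515 CPM in BPI and 5764 CPM in BP replicate 1. Their part in the inflammatory gene levels was not tested.

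Some genes of lipid-handling macrophages were lower in the Ly6c2 gate of BPI than in that of BP replicate 2. Of 16 that entered, none was higher and 7 were lower, where 6.13% of all genes were lower. Their median was -0.45, against -0.08 over all genes. Spp1, the matrix cytokine osteopontin, was at 1893 CPM in BP replicate 2 and 410 CPM in BPI (log2 ratio -2.21, -2.32 to -2.09), but 10 cells held 74.1% of the Spp1 UMIs in BP replicate 2, and BP replicate 1 was at 104 CPM. Cells with a Spp1 UMI were 43.1% and 24.3% (24.8% and 12.0% after thinning), against 5.22% and 3.16% in the CD8 gate. Apoe, the lipid carrier apolipoprotein E, was at 4491 and 2154 CPM (log2 ratio -1.06), with 2098 CPM in BP replicate 1. Fabp5, a fatty acid-binding protein, was at 362 and 149 CPM, and Ctsd, the lysosomal protease cathepsin D, at 673 and 399 CPM. BP replicate 1 stood at 590 CPM of Fabp5 and 482 CPM of Ctsd, so BPI was below both BP libraries for these 2 genes, while for Spp1 it lay between them and for Apoe close to BP replicate 1. Pde4d, a cyclic AMP phosphodiesterase, at 243 and 84.9 CPM, and Cx3cr1, the fractalkine receptor, at 131 and 50.02 CPM, were also lower.

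Among PI3K subunits of the Ly6c2 gate, Pik3r5, a regulatory partner of PI3K gamma, was lower in BPI at 69.9 and 42.0 CPM (log2 ratio -0.73, -1.20 to -0.26). Pik3cd (62.3 and 56.7 CPM) and Pik3ap1 (271 and 252 CPM) were not called, and Pik3cg, at 25.8 and 20.6 CPM, did not enter. Glycolysis genes showed 2 of 15 higher and none lower, where 3.90% of all genes were higher (median 0.35, against -0.08 over all genes).

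The promoters of 4 of the interferon-responsive chemokine and guanylate-binding protein genes are shown because these genes were higher in 1 or both of the main myeloid gates. Interferon gamma acts through GAS elements, and both interferon types act through ISRE elements. The windows are RefSeq promoters of build GRCm38.p6, 250 bases before to 50 after the start of transcription, 5′ to 3′ on the strand of the gene: Gbp5 at chr3:142496684-142496983 (plus strand), Gbp2 at chr3:142620413-142620712 (plus), Cxcl10 at chr5:92348840-92349139 (minus) and Cxcl9 at chr5:92328030-92328329 (minus). Capitals mark matches to TTCNNNGAA (GAS, with N for any base) or to GAAA, any 2 bases and GAAA again (ISRE), each searched on both strands; overlapping matches of both share their capitals.
Gbp5: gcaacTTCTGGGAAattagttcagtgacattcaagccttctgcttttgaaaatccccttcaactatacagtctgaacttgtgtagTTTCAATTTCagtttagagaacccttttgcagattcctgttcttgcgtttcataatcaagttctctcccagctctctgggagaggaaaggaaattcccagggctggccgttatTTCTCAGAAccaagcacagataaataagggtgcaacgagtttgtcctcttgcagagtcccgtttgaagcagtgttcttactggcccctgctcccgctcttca
Gbp2: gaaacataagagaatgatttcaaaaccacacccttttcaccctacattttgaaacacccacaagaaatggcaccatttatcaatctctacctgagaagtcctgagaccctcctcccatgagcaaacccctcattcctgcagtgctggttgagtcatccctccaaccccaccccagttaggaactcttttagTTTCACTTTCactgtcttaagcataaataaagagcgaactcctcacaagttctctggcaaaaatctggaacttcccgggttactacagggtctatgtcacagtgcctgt
Cxcl10: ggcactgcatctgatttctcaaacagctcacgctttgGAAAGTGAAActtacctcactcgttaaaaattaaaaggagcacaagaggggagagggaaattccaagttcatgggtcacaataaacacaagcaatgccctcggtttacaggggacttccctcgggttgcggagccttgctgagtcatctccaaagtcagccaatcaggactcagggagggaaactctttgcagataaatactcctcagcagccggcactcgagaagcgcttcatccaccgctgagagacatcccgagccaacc
Cxcl9: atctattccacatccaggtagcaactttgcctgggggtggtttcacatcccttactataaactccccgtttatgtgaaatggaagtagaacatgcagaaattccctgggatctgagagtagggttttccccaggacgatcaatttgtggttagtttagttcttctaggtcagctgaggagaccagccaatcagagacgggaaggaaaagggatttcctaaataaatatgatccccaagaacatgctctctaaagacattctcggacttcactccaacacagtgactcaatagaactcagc
Gbp5 held 2 GAS matches and 1 ISRE match, Gbp2 and Cxcl10 each held 1 ISRE match, and Cxcl9 held neither in this window. Of the interferon gamma response genes that entered in the Ly6c2 gate, 16 had a RefSeq window; a GAS match stood in 7 of them and an ISRE match in 9. Of all 27025 genes with a window, 9.55% held a GAS and 3.99% an ISRE match; of all 32851 windows, since a gene can have several, 8.30% and 3.44% did. Of 12 lipid-macrophage genes with a window, 0 held a GAS match and 1 an ISRE match. A match is a run of letters, not a measured binding site.

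Among the gates compared, microglia had the highest median ratio of interferon gamma response genes. In the microglia gate, 267 of 3383 genes were higher in BPI (7.89%) and 343 lower (10.1%). Of 17 interferon gamma response genes, 16 were higher and none lower, with a median log2 ratio of 2.30 against -0.11 over all genes; of 15 type I interferon genes, 15 were higher (median 1.06); of 14 MHC class I genes, 8 were higher and none lower (median 0.66). Some members of the interferon gamma list, Gbp2, Gbp5 and Cd274 among them, were below the entry level in BP replicate 2. They entered through their level in BPI, and the part of such entry in the counts and medians was not tested. The summed level of the interferon gamma list was 1997 CPM in BP replicate 2, 6805 CPM in BPI and 6053 CPM in BP replicate 1. Cxcl9 and Cxcl10 count in this sum too, and some members, such as Gbp2 and Cd274, were higher in BP replicate 1 than in BPI. The estimate of free RNA in this gate was 46.6% in BP replicate 2 and 22.1% in BPI; its part in these ratios was not tested.

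Cxcl10 was at 212 CPM in the microglia gate of BP replicate 2 and 1765 CPM in BPI (log2 ratio 3.06, 2.83 to 3.30), with 344 CPM in BP replicate 1 and 1085 CPM in UT. Cells with a Cxcl10 UMI were 14.3% and 44.0%, and 6.77% and 31.4% after thinning, while the CD8 gate had 14.8% and 20.1%, so the share in BP replicate 2 was at the background. Cells with at least 10 Cxcl10 UMIs were 6 of 133 and 38 of 159. Gbp2 was at 25.0 and 288 CPM, Gbp5 at 16.3 and 171 CPM, and Cd274 at 23.8 and 156 CPM. BP replicate 1 held 431 CPM of Gbp2 and 257 CPM of Cd274, above BPI in both.

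Chemokines for monocytes and T cells were higher as well in microglia. Of 13 chemokine genes, 9 were higher and none lower (median 1.62), where 7.89% of all genes in the gate were higher. Ccl4 was at 1239 and 4402 CPM (log2 ratio 1.83), with 247 CPM in BP replicate 1. Ccl2, Ccl7 and Ccl12, ligands of the monocyte receptor CCR2, were at 1178 and 3096 CPM, 314 and 1117 CPM, and 1286 and 4004 CPM, and for all 3 BP replicate 1 was lower than BP replicate 2 (220, 163 and 434 CPM). Thus BPI microglia stood above both BP libraries in these 4 chemokines but not in Gbp2 or Cd274. The list of dissociation stress genes summed to 17776 and 17983 CPM in this gate, against 4099 CPM in BP replicate 1.

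Levels of the genes that drew the gate are given as a description only, since the selection bears on them. P2ry12, a purine receptor, was at 680 and 602 CPM, and Tmem119, a membrane protein of microglia, at 453 and 497 CPM. Gpr34, a receptor for lysophosphatidylserine, was at 567 and 343 CPM, and at 52.6 CPM in BP replicate 1, below both. Pik3cg (73.9 and 48.4 CPM) and Pik3cd (67.6 and 44.4 CPM), the genes of the drug's targets, each had a log2 ratio of -0.61 and counted as lower, but their intervals, -1.25 to 0.01 and -1.28 to 0.04, reach past 0. Of 7 mitotic genes, 5 were lower and none higher (median -0.85), where 10.1% of all genes in the gate were lower. Among the 5 was Top2a (288 and 133 CPM), for which free RNA was estimated at 75.4%.

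**Figure D4:**
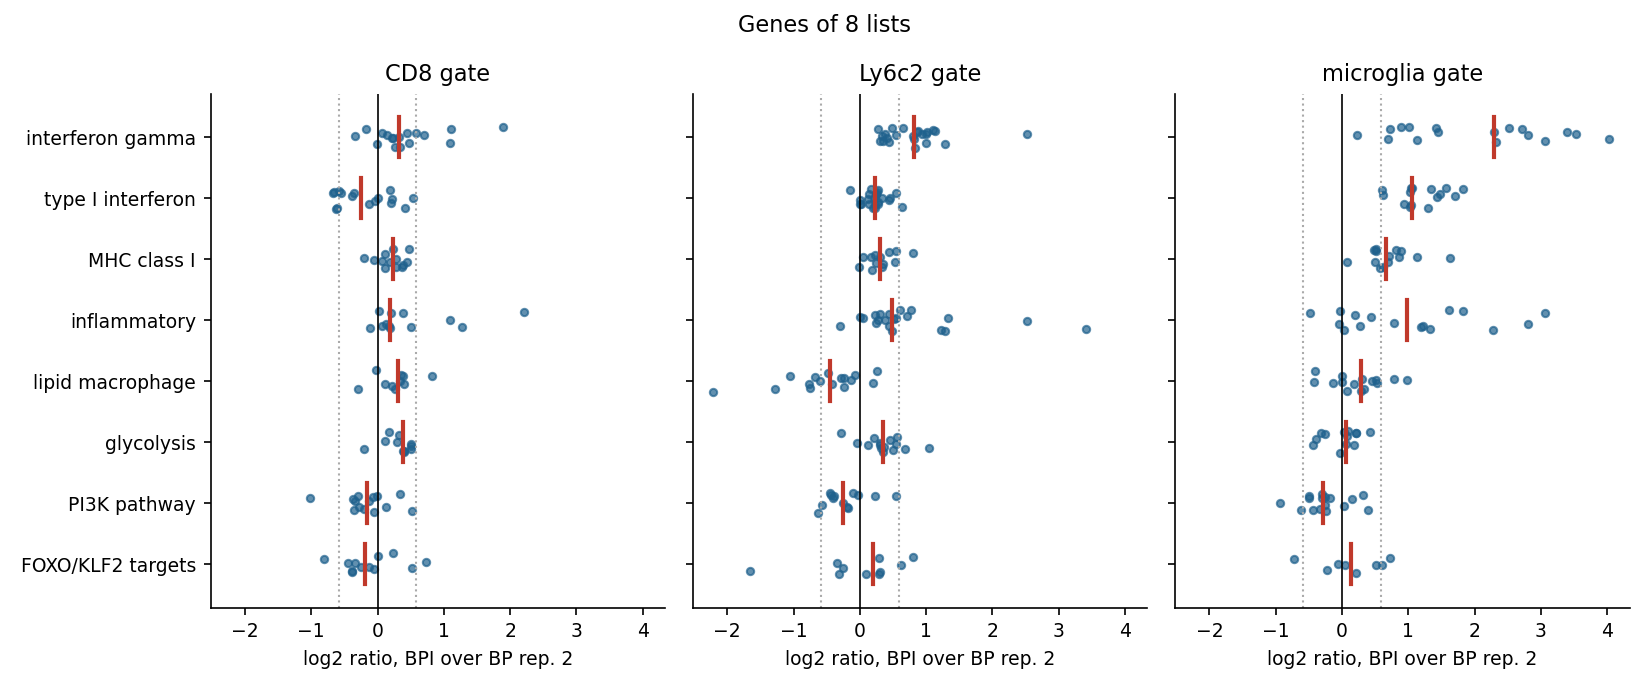
Each point is the log2 ratio of BPI over BP replicate 2 of 1 gene that entered, in the CD8, Ly6c2 and microglia gates; red lines are list medians and dotted lines the 1.5-fold limit. The interferon gamma list lies above 0 in all of its genes that entered in both myeloid gates (medians 0.82 and 2.30). The median of the lipid-macrophage list lies below 0 in the Ly6c2 gate (-0.45) but not in the microglia gate (0.28).

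The C1q gate held few cells, 36 and 56, and 350 of its 2907 genes were higher (12.0%) and 322 lower (11.1%). Of 19 lipid-macrophage genes, none was higher and 13 were lower (median -0.73), and of 20 inflammatory genes 15 were higher and none lower (median 0.77). Stress genes summed to 6655 and 8828 CPM in this gate, and their part in these counts was not tested. Inhba, which was higher in the Ly6c2 gate, was lower here at 93.1 and 18.3 CPM, and Saa3 did not enter, with 3 and 1 UMIs. Fabp5 was at 1375 CPM in BP replicate 2 and 267 CPM in BPI, Ctsd at 3227 and 1210 CPM, Spp1 at 2009 and 754 CPM and Apoe at 16755 and 9729 CPM, the direction seen in the Ly6c2 gate. Il12b, the p40 chain of IL-12, was at 39.4 and 160 CPM, on 11 and 61 UMIs, and was listed at 0 CPM in BP replicate 1. Tnf was at 158 and 406 CPM, and Plac8, a gene of monocytes, at 269 and 974 CPM.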

How the data were processed

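The libraries are single-cell RNA-seq (10x) of whole mouse tumours. The authors deposited raw UMI counts per gene and barcode for 32285 genes, made with Cell Ranger 7.0.1 against mm10 per the submitters' processing notes and labels, while the matrix headers name Cell Ranger 4. The deposited gene and barcode lists were used as names only. No cell annotation was used. Barcodes were kept at 1000 UMIs, 500 genes and 15% mitochondrial UMIs, and cells were assigned by UMI gates, not clusters. Markers of a gate are therefore no results in it. The members, gates and gene lists (47) were chosen with earlier results of these data known.

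UMIs were summed per library and class and given as CPM of the class. Genes with a mean of 50 CPM and 30 UMIs over both libraries entered, and a 1.5-fold ratio was called. Intervals are exact Poisson, Clopper-Pearson, conditional ratio and Newcombe intervals (95%). No p-value was computed, since each arm is 1 library. The genes named, per class, are the 12 highest and 12 lowest by the interval bound nearest to no difference, leaving out receptor segments, unnamed, mitochondrial and ribosomal genes and genes with 10% or more of free RNA, of which the text gives those with a described role. Genes of the drugs' targets and PI3K subunits were added, as were the 4 largest of each list whose median lay more than 0.2 from that of all genes. Arg1, Ccl2, Cxcl10 in Ly6c2 cells, Ddx58, Havcr2, Il2, Klf2, Lyz2, P2ry12, Tmem119, Usp18, Xist, Foxp3, and the levels of genes named for another class fall outside this rule and were picked with their values known. Some results are not reported here.

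The free RNA of a library was read from barcodes of 10 to 100 UMIs. Its share in a class was estimated from tumour markers, also counts tumour RNA of mixed barcodes and is an upper estimate. It can pass 100%, as at 113% for the leukocytes of BP replicate 2 in neither class. In both libraries, the median cell of the CD8, NK, Ly6c2 and microglia gates held no tumour marker UMI. A barcode was called mixed when its tumour marker share reached 0.5 of the median of non-leukocyte barcodes. Doublets were not removed in the main values. For the alternative without doublets, barcodes were ranked by Scrublet score (in scanpy 1.11.5). The highest were removed at an assumed rate of 0.8% per 1000 barcodes. That rate fixed the shares removed in advance, at 4.81% of the quality barcodes of BP replicate 2 and 5.63% of those of BPI. Among leukocytes, 9.01% and 9.42% were removed. The pipeline was tested on simulated counts. Python 3.11.15, numpy 2.4.6, pandas 2.3.3, scipy 1.17.1, anndata 0.12.19 and matplotlib 3.10.9 were used. Alternatives covered depth, gate limits, scaling, free RNA, mixed barcodes, doublets, expression minimum, fold and the BP library compared.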

Additional observations from a re-analysis of the deposited data

Results flagged for a closer look

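A pair of genes had opposite directions in the 2 cell classes. Ifi208, an interferon-inducible gene, had a log2 ratio of BPI over BP replicate 2 of -0.83 in lymphoid cells and 0.94 in myeloid cells. Socs1, which encodes an inhibitor of cytokine receptor signalling, had a log2 ratio of -0.86 in lymphoid cells and 0.77 in myeloid cells. With 1 library per arm, the difference between the classes was not tested.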

How the results depend on the processing

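With 1 library per arm, counting error is the only error given, and few cells limit the CD4 and C1q gates. No paired analysis was possible because BPI holds 1 library, so the groups share fewer than 2 replicate numbers. Leaving out barcodes with tumour RNA or the neutrophil gate, and the microglia gate alone, were alternatives chosen after seeing the data. Of the 234 main values recomputed, 160 kept direction and size, 67 moved and 7 turned; of 1404 values of single genes and lists, 1068, 304 and 32 did.

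Leukocyte share (13.3 points) was 10.9 at 2000 UMIs, 8.39 thinned, 10.6 with 2 Ptprc UMIs, 18.9 without barcodes with tumour RNA, -22.5 against BP replicate 1 and -4.62 against the mean of the BP libraries. NK gate share (4.81) was 1.59 at 2000 UMIs and 8.21 against BP replicate 1. After thinning, CD8 was -2.28, C1q 3.29, Cxcl9 21.8 and MHC class II 13.7 points. Against BP replicate 1 the differences were 1.44 for myeloid cells, 25.4 for CD8, -19.8 for CD4, 30.7 for Ly6c2, -0.999 for microglia, -29.1 for C1q, -3.59 for Cxcl9 and -16.4 for MHC class II. Against the BP mean they were -2.66 for myeloid, 17.0 for CD8, -13.7 for CD4, -8.43 for microglia, -15.7 for C1q, 12.9 for Cxcl9 and 4.30 for MHC class II.

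Lymphoid genes higher and lower (76 and 76) numbered 253 and 1170 against BP replicate 1, 304 and 288 with free RNA subtracted, 7 and 1 at 2-fold, 230 and 321 at 20 CPM, 34 and 20 at 100 CPM, 1789 and 2655 with no minimum, and 308 and 341 in the CD4 and Foxp3 gates; those lower numbered 497 against the BP mean and 143 in the CD8 gate. Myeloid genes (215 and 206) numbered 399 and 1068 against BP replicate 1, 68 and 35 at 2-fold, 339 and 630 at 20 CPM, 138 and 86 at 100 CPM, 1487 and 4127 with no minimum, and 350 and 322 in the C1q gate. Myeloid genes higher were 119 in the Ly6c2 gate; those lower were 539 against the BP mean, 133 with median-ratio scaling, 364 with cells weighted equally, 447 with free RNA subtracted and 343 in the microglia gate. Lymphoid lists with a median below all genes (1) numbered 0 with 2 Ptprc UMIs or equal weights, 8 against BP replicate 1, 5 against the mean, 3 with free RNA subtracted, 2 at 20 CPM, 2 at 100 CPM, 2 in the CD8 gate and 6 in the CD4 and Foxp3 gates. Myeloid lists below (5) numbered 8 against either, and the microglia gate had 17 above and 1 below.

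Against BP replicate 1 these log2 values turned: lymphoid Tnfrsf9 -1.18, Tent5a -0.75, Ifi206 0.81 and Ifit2 0.018; myeloid interferon gamma median -0.057, microglia marker median 0.62, Chil3 -1.24, Htr7 -0.87, Gbp2 -0.12, Csmd3 1.98, Gpr34 1.82, Tmx4 0.27, Adamts1 2.73 and Rapgef5 0.57. Against the BP mean Tnfrsf9 was -0.53, Tent5a -0.22, Chil3 -0.39 and Htr7 -0.046. Within gates, Maf was 0.96 in CD8. In CD4 and Foxp3, Ifng was -2.48, Gzmb -0.11, Tnfrsf9 -0.13 and St8sia4 0.15. In C1q, Inhba was -2.34, Plxdc2 0.55, Pde3b 1.36 and Rapgef5 2.87. Saa3 was -2.04 in C1q, on UMIs too few to enter, so no direction is read from it. In Ly6c2, Plxdc2 was 0.59 and Pde3b 0.016. In microglia, the microglia marker median was 0.022 and Saa3 -0.77. The cause was not tested.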

Other observations

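Some antigen presentation genes were higher in the microglia gate of BPI, where 7.89% of all genes that entered were higher and 10.1% lower. H2-K1, a classical MHC class I chain, was at 1309 CPM in BP replicate 2 and 2376 CPM in BPI, and Cd74, the invariant chain of MHC class II, at 1932 and 3282 CPM. Of 8 MHC class II genes that entered, 4 were higher, none was lower and 4 were not called (median log2 ratio 0.66 against -0.11 over all genes), and H2-Ab1, a class II beta chain, was at 846 and 1162 CPM, under the 1.5-fold limit. BP replicate 1 stood far above both libraries, with 12802 CPM of Cd74 and 5955 CPM of H2-Ab1. Fcgr4, an activating receptor for antibody, was at 27.5 CPM in BP replicate 2, 145 CPM in BPI and 142 CPM in BP replicate 1.

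In the CD4 and Foxp3 gates together, with 33 and 37 cells, 308 of 1664 genes were higher in BPI (18.5%) and 341 lower (20.5%). Nkg7, a cytotoxic granule protein, was at 1046 CPM in BP replicate 2 and 289 CPM in BPI, and Rgs1 at 689 and 153 CPM. Free RNA was estimated at 29.5% and 80.6% of these gates' UMIs, and 9.09% and 27.0% of the barcodes carried tumour RNA at a mixed level; their part in these levels was not tested. Foxp3 was at 224 CPM on 25 UMIs and 164 CPM on 30 UMIs, with an interval of the log2 ratio from -1.27 to 0.38. BP replicate 1 lay near BPI for Nkg7, at 329 CPM.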
